A study of Mus musculus with 8 samples.

Results

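Interferon-stimulated genes are the genes whose transcription rises when a cell receives an interferon signal. A list of 40 such mouse genes was followed in 8 microarrays, and 35 of the 40 were measured among 12393 genes in all. A gene counted as measured when a probe set carried its symbol alone, and where several probe sets did, the brightest on average across the 8 arrays stood for the gene. Isg15 and Tgtp1 each had only a probe set shared with another gene and were not analysed here, and no probe set named Ifi44, Ddx58 or Xaf1.

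The study set 6 mouse soft tissue sarcomas against 2 normal hind limb muscles. Tumours had been started in mice carrying the conditional Braf allele called BrafCa and floxed p53 by injecting an adenovirus that expresses Cre, the recombinase that acts on loxP sites. Of the sarcomas, 4 were Braf Ca/Ca; p53 Fl/Fl (numbered 1, 2, 3 and 5) and 2 were Braf Ca/+; p53 Fl/Fl (numbered 1 and 2), while 1 muscle of each genotype came from a limb without a tumour, so floxed p53 and at least 1 BrafCa allele were shared by every sample. The labels do not state the strain, the age, which cells received Cre, or whether each sample came from its own mouse. The p-values therefore measure only the spread between these samples and may reflect technical spread.

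Levels are the deposited log2 values, on which a difference of 1 is a doubling. They rank arrays for 1 gene and cannot rank genes, because probe sets differ in brightness. Array medians over the table lay between 5.79 and 5.9. The 10 muscle fibre markers averaged 12.86 and 12.69 in the Ca/Ca and Ca/+ muscles and 6.93 to 9.17 in the sarcomas, which goes with the tissue labels. The 90th percentile of 136 values of genes of other tissues, 4.62, served as a floor, and 15 of the members' 280 values, in 8 members, lay at or under it. Ca/Ca sarcoma 5 stood apart in its T and NK cell markers. Of these, 3 of 11 were above the floor there, against 7 to 11 on the other sarcomas. The range, the tumour order and the median differences are therefore also given without this tumour. All 15 macrophage markers were above the floor in it.

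Type I interferons bind the receptor chains Ifnar1 and Ifnar2, and the kinases Jak1 and Tyk2 then activate a complex that holds Stat2 and Irf9 and binds an element called ISRE before the induced genes. Interferon gamma binds Ifngr1 and Ifngr2 and acts through another element, GAS, and through Irf1. The induced proteins sense viral nucleic acid, block viral entry and replication, attack the membranes around intracellular parasites, and feed back on the pathway, and in tumours both malignant and infiltrating cells can make them.

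The interferon-stimulated genes varied widely from sarcoma to sarcoma. Their median range over the 6 sarcomas was 3.92 log2 units, from 1.11 for Ifitm3 to 6.85 for Ifit1, against 0.654 over all genes. A range of at least 2 units was seen in 32 of 35 members and in 7.78% of all genes. Much of that width came with Ca/Ca sarcoma 5: without it the median range was 2.19 (0.569 over all genes), and 22 of 35 members and 4.28% of all genes reached 2 units. The widest ranges were then 4.28 for Ifi44l and 3.96 for Ifit1. The mean of the 35 levels was 7.28 and 6.61 in the Ca/Ca and Ca/+ muscles. It was 9.20, 7.34, 7.42 and 5.62 in Ca/Ca sarcomas 1, 2, 3 and 5, and 7.56 and 8.90 in Ca/+ sarcomas 1 and 2. Ca/Ca sarcoma 1 and Ca/+ sarcoma 2 were thus the high pair, Ca/Ca sarcoma 5 lay below both muscles, and the other 3 sarcomas lay just above the Ca/Ca muscle. In whole tissue, fewer cells of a type and less RNA per cell cannot be told apart.

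**Figure D1:**
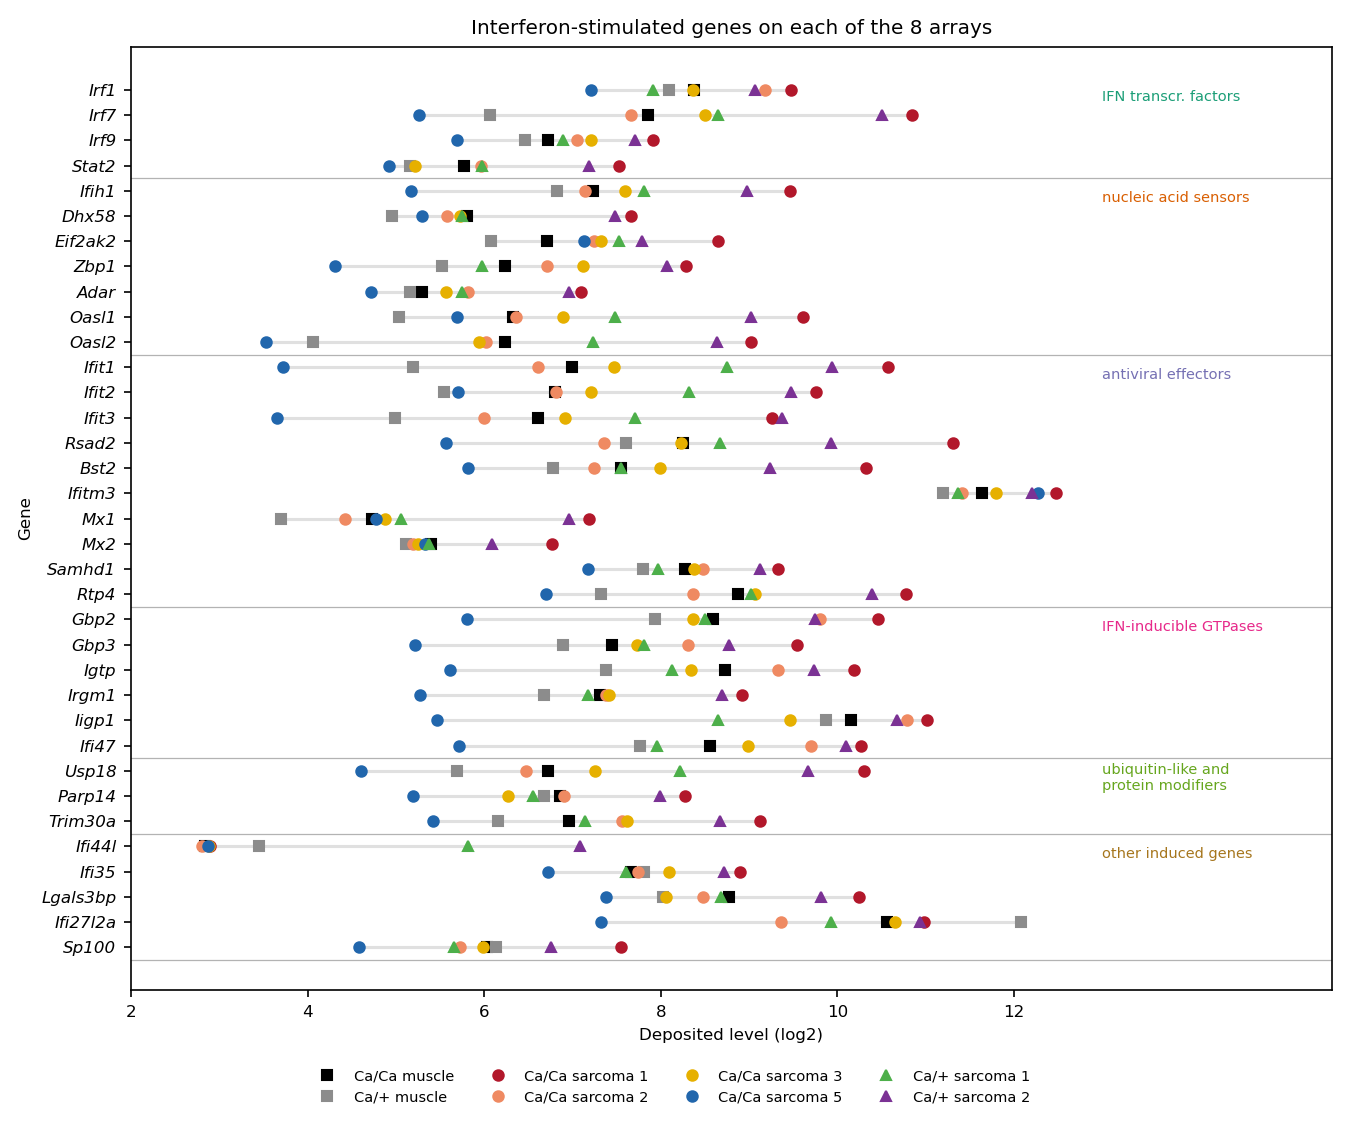
Deposited log2 level (x axis) of each of the 35 measured genes (y axis, grouped by role), with a point for each of the 8 arrays and a grey line from the lowest to the highest. Ca/Ca sarcoma 1 (dark red) is the rightmost sarcoma for 33 genes and Ca/Ca sarcoma 5 (blue) the leftmost for 31.

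The ends of the tumours' order were shared by most members, and its middle was not. Ca/Ca sarcoma 1 was the highest sarcoma for 33 of 35 members, against 10.9% of all genes, and Ca/Ca sarcoma 5 was the lowest for 31, against 20.5% of all genes. For 30 members the high pair was Ca/Ca sarcoma 1 and Ca/+ sarcoma 2, against 5.88% of all genes. Without Ca/Ca sarcoma 5 the first count stayed at 33, against 14.3% of all genes. The high pair then held for 31 members, and its share over all genes was not computed for that setting. In the middle, Ca/+ sarcoma 1 was above Ca/Ca sarcoma 2 for 19 members and below it for 16. Ca/+ sarcoma 2 exceeded Ca/+ sarcoma 1, which has the same genotype, for 35 of 35 members and for 49.7% of all genes. Members share their arrays, so these counts describe 6 tumours and are not independent observations.

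The sequence before the start of these genes was examined for the elements through which interferons act. The members were listed as interferon-induced, so an excess of matches could follow from that choice alone. The matches do not bear on the tumours' order. A promoter was listed for 26 of the 35 members in the RefSeq promoter table (build GRCm38.p6), and the 250 bases before the start were searched on both strands for the ISRE core, GAAANNGAAA or its complement TTTCNNTTTC, and for the GAS element, TTCNNNGAA, which is its own complement. The ISRE core was found in 10 of 26 members (38.5%) and in 3.46% of all genes in that table, and GAS in 6 of 26 (23.1%) and 8.13%. By role the ISRE core was found in 4 of 5 interferon-inducible GTPases, in 4 of 7 antiviral effectors and in 0 of 5 nucleic acid sensors. GAS was found in 1 of 5 GTPases, 3 of 7 antiviral effectors, 1 of 5 sensors and 1 of 4 transcription factors. The 4 promoters shown here have the core at different distances, and belong to a gene of the widest range (Ifit1), a GTPase (Gbp2), a protein modifier (Trim30a) and a transcription factor (Stat2). They lie at chr19:34640639-34640888 (+ strand), chr3:142620413-142620662 (+), chr7:104465194-104465443 (-) and chr10:128270248-128270497 (+), are printed 5′ to 3′ on the gene's strand, and carry the ISRE core in capitals.
Ifit1: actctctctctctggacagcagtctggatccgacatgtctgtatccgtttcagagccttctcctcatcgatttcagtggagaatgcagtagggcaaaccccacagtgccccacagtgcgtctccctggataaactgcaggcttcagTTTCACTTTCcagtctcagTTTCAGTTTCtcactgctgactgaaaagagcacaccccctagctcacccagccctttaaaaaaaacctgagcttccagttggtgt
Gbp2: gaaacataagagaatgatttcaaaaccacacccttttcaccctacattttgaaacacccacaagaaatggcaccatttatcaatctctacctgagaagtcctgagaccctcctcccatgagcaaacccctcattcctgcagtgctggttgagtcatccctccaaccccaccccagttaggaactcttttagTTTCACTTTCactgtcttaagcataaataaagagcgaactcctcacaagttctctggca
Trim30a: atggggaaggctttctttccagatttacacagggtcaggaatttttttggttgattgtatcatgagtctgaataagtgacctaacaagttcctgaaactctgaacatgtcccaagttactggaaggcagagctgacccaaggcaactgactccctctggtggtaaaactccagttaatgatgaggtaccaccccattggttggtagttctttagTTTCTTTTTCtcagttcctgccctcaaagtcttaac
Stat2: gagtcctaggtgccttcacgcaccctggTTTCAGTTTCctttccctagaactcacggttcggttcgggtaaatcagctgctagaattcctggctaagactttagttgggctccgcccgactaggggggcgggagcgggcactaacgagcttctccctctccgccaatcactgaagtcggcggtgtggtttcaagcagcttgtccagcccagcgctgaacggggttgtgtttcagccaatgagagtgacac
The first base of the core lies 104 and 85 bases before the start in Ifit1, 59 in Gbp2, 36 in Trim30a and 222 in Stat2. The GAS element of Irf1 starts 90 bases before that gene's start and stands in capitals in the 49 bases of chr11:53769904-53769952 (+), shown as an example of GAS and chosen after the gene's values were seen.
Irf1: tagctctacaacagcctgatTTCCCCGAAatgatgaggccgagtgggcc
These matches describe letters in a window, and binding was not measured.

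Whether the sarcomas differ from muscle was the study's stated comparison. Of the 35 members, 1 passed the limma test at an adjusted p of 0.05, with Benjamini-Hochberg adjustment over all 12393 genes: Eif2ak2, higher in sarcoma. The background was 26.3% of all genes called, with 13.1% higher and 13.2% lower in sarcoma. Eif2ak2 encodes the kinase PKR, which stops translation on binding double-stranded RNA. Here and for the genes that follow, levels run in the order of the Ca/Ca and Ca/+ muscles, Ca/Ca sarcomas 1, 2, 3 and 5, and Ca/+ sarcomas 1 and 2. Eif2ak2 was at 6.71 and 6.08 in muscle, at 8.65, 7.25, 7.33 and 7.13 in the Ca/Ca sarcomas and at 7.53 and 7.79 in the Ca/+ sarcomas. All 6 sarcomas lay above both muscles. Its mean was 7.61 ± 0.56 (SD, n = 6) in sarcoma and 6.39 ± 0.45 (n = 2) in muscle, a log2 difference of 1.22 (SE 0.39, limma adjusted p = 0.0494). The call was lost in 11 of 17 alternatives, among them leaving out either muscle (adjusted p = 0.0816 without the Ca/Ca muscle and 0.346 without the Ca/+ muscle). The gene's other probe set gave a difference of 0.28. On it Ca/Ca sarcomas 2 and 3 (4.87 and 4.94) lay below both muscles (5.43 and 5.16).

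On the probe sets that stood for the genes, Eif2ak2 was also the single member with all 6 sarcomas above both muscles. This arrangement was seen in 20% of all genes. No member had all 6 below, which 19% of all genes had. The members' median difference was 0.67, with 32 above 0 and 3 below (27 above 0 with arrays centred on housekeeping genes, which moved the median of all genes by -0.383). Over all genes the median was 0.026, with 52.3% above 0. Without Ca/Ca sarcoma 5 the median was 1.15 and 34 of 35 differences were above 0, with 1 call. For 27 members the muscles lay between the lowest and the highest sarcoma, against 33.2% of all genes.

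**Figure D2:**
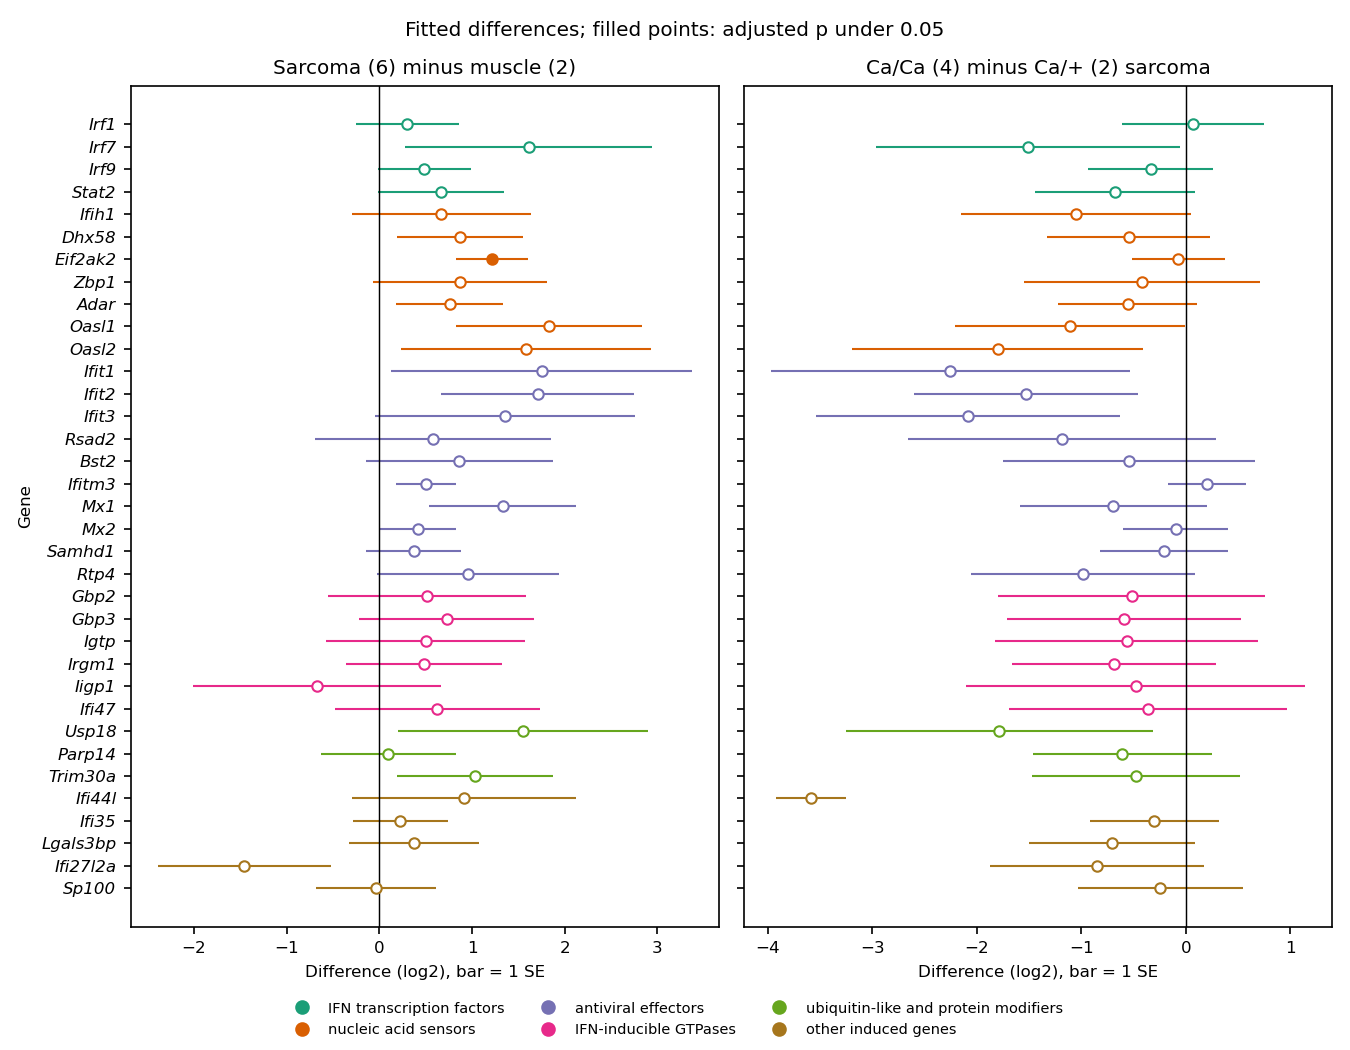
Log2 difference of sarcoma over muscle (left) and of Ca/Ca over Ca/+ sarcoma (right) for each of the 35 genes, with bars of 1 standard error from limma, colours for the roles and a filled point where the adjusted p is under 0.05. Only Eif2ak2 on the left is filled, 32 points lie above 0 on the left (27 with housekeeping centring), and 33 lie below 0 on the right.

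Among the transcription factors, Irf7 had the widest spread. Irf7 drives transcription of the type I interferon genes themselves. Irf7 was at 7.86 and 6.06 in muscle, at 10.84, 7.66, 8.50 and 5.26 in the Ca/Ca sarcomas and at 8.64 and 10.51 in the Ca/+ sarcomas. The Ca/Ca tumours lay on both sides of the muscles, and the difference of 1.61 (SE 1.34) did not pass the test (limma adjusted p = 0.429). Irf9 and Stat2 belong to the complex that binds ISRE, and Irf9 ran from 5.70 to 7.91 over the sarcomas. Stat2 was at 5.77 and 5.16 in muscle, at 7.52, 5.96, 5.21 and 4.92 in the Ca/Ca sarcomas and at 5.98 and 7.19 in the Ca/+ sarcomas. Its high pair was again Ca/Ca sarcoma 1 and Ca/+ sarcoma 2. Irf1 was at 8.37 and 8.09 in muscle, at 9.48, 9.18, 8.36 and 7.21 in the Ca/Ca sarcomas and at 7.91 and 9.06 in the Ca/+ sarcomas. Irf1, induced chiefly by interferon gamma, was higher in Ca/Ca sarcoma 2 than in Ca/+ sarcoma 2, unlike Irf7.

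The 7 sensors and nucleic acid enzymes all had higher means in sarcoma than in muscle, by 0.67 to 1.83, of which Eif2ak2 alone passed the test. Ifih1 was at 7.23 and 6.82 in muscle, at 9.46, 7.14, 7.59 and 5.17 in the Ca/Ca sarcomas and at 7.81 and 8.98 in the Ca/+ sarcomas. Ifih1, which encodes the long double-stranded RNA sensor MDA5, was thus lower in Ca/Ca sarcoma 5 than in any other sample. Oasl1, which restrains translation of Irf7, had the largest difference among all members at 1.83 (SE 1.00, limma adjusted p = 0.225). Oasl1 was at 6.33 and 5.04 in muscle, at 9.62, 6.37, 6.89 and 5.70 in the Ca/Ca sarcomas and at 7.48 and 9.02 in the Ca/+ sarcomas. Ca/Ca sarcoma 5 lay between the muscles, and the other 5 sarcomas lay above both. Oasl2 was at 6.24 and 4.06 in muscle, at 9.03, 6.02, 5.94 and 3.53 in the Ca/Ca sarcomas and at 7.23 and 8.63 in the Ca/+ sarcomas. Oasl2, of the oligoadenylate synthetase family, was at or under the floor in the Ca/+ muscle and in Ca/Ca sarcoma 5. Dhx58, which tunes RNA sensing, ran from 5.30 to 7.66 over the sarcomas. Zbp1, a sensor of Z-form nucleic acid, ran from 4.31 to 8.29, and Adar, which edits double-stranded RNA, ran from 4.72 to 7.09, both with Ca/Ca sarcoma 5 lowest and Ca/Ca sarcoma 1 highest.

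The 10 antiviral effectors all had higher means in sarcoma than in muscle, by 0.37 to 1.75 (Samhd1 is below 0 with housekeeping centring), and none passed the test. Ifit1 was at 7.0 and 5.19 in muscle, at 10.57, 6.61, 7.47 and 3.72 in the Ca/Ca sarcomas and at 8.75 and 9.94 in the Ca/+ sarcomas. Ifit1, whose protein binds viral RNA lacking the host cap methylation, was below the floor in Ca/Ca sarcoma 5 and spanned 6.85 units. Ifit3 was at 6.61 and 4.99 in muscle, at 9.26, 6.00, 6.91 and 3.65 in the Ca/Ca sarcomas and at 7.71 and 9.37 in the Ca/+ sarcomas. Its partner Ifit3 followed the same order except that Ca/+ sarcoma 2 was highest. Rsad2 was at 8.26 and 7.61 in muscle, at 11.31, 7.36, 8.23 and 5.57 in the Ca/Ca sarcomas and at 8.67 and 9.93 in the Ca/+ sarcomas. Rsad2, or viperin, which blocks viral replication, exceeded both muscles in Ca/Ca sarcoma 1 and in both Ca/+ sarcomas. The differences from muscle were 1.75 for Ifit1 (SE 1.62, limma adjusted p = 0.481) and 1.71 for Ifit2 (SE 1.04, adjusted p = 0.274). Mx1 was at 4.74 and 3.70 in muscle, at 7.19, 4.43, 4.88 and 4.77 in the Ca/Ca sarcomas and at 5.06 and 6.96 in the Ca/+ sarcomas. Mx1 and Mx2, dynamin-like inhibitors of viruses, were set apart by the high pair, with the other sarcomas near the muscles. Levels of Mx1 in the Ca/+ muscle and in Ca/Ca sarcoma 2 were under the floor. Mx2 was at 5.39 and 5.11 in muscle, at 6.76, 5.20, 5.25 and 5.33 in the Ca/Ca sarcomas and at 5.37 and 6.09 in the Ca/+ sarcomas. Bst2 was at 7.55 and 6.78 in muscle, at 10.32, 7.24, 7.99 and 5.82 in the Ca/Ca sarcomas and at 7.54 and 9.23 in the Ca/+ sarcomas. Bst2, or tetherin, holds budding virus on the cell surface and had Ca/Ca sarcoma 1 highest by over 1 unit. Over the sarcomas Ifit2, of the family of Ifit1, ran from 5.70 to 9.76, Rtp4 from 6.70 to 10.78, and Samhd1, which depletes nucleotides, from 7.17 to 9.32. Ifitm3 was at 11.63 and 11.20 in muscle, at 12.47, 11.41, 11.80 and 12.27 in the Ca/Ca sarcomas and at 11.37 and 12.20 in the Ca/+ sarcomas. Ifitm3, which blocks the fusion of entering virus, was the most even member, and Ca/Ca sarcoma 5 was there the sarcoma with the next to highest level.

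**Figure D3:**
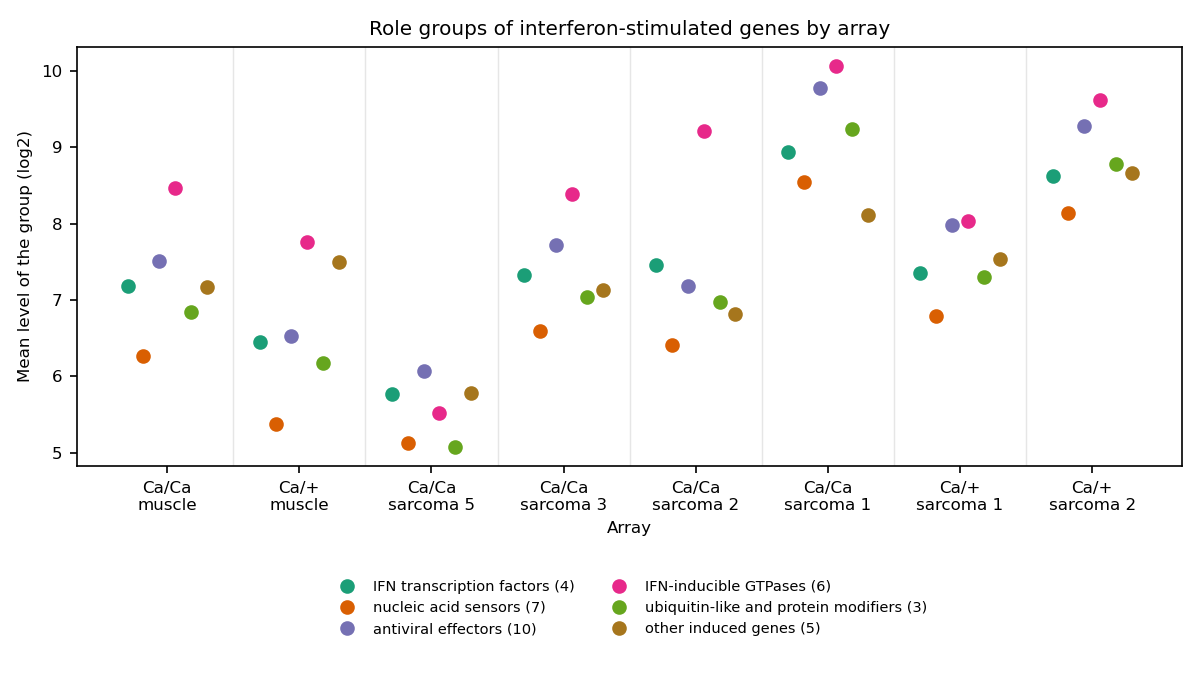
Mean log2 level (y axis) of the members of each role, 1 coloured point a role, on each of the 8 arrays (x axis), to be compared between arrays for 1 role and not between roles. Within each role Ca/Ca sarcoma 5 is the lowest sarcoma, and the GTPase mean is higher in Ca/Ca sarcoma 2 (9.22) than in Ca/+ sarcoma 1 (8.04), while the antiviral effector mean is lower (7.19 against 7.98).

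The interferon-inducible GTPases, which attack the vacuoles of intracellular pathogens, were lower in Ca/+ sarcoma 1 than in Ca/Ca sarcoma 2 in all 6 members, and none passed the test against muscle. Iigp1 was at 10.15 and 9.87 in muscle, at 11.01, 10.79, 9.46 and 5.46 in the Ca/Ca sarcomas and at 8.64 and 10.68 in the Ca/+ sarcomas. Iigp1, an effector of the immunity-related GTPase family, was high in muscle, and Ca/Ca sarcoma 5 lay over 3 units below every other sample. Gbp2 was at 8.59 and 7.94 in muscle, at 10.46, 9.80, 8.37 and 5.80 in the Ca/Ca sarcomas and at 8.50 and 9.75 in the Ca/+ sarcomas. Gbp2, a guanylate-binding protein, had Ca/Ca sarcoma 2 at the level of Ca/+ sarcoma 2. Ifi47 was at 8.56 and 7.76 in muscle, at 10.26, 9.70, 8.98 and 5.72 in the Ca/Ca sarcomas and at 7.96 and 10.10 in the Ca/+ sarcomas. Igtp was at 8.73 and 7.38 in muscle, at 10.19, 9.33, 8.34 and 5.62 in the Ca/Ca sarcomas and at 8.13 and 9.74 in the Ca/+ sarcomas. Ifi47 and Igtp, both of the same family as Iigp1, kept the order of Gbp2 at its ends, with Ca/Ca sarcoma 1 highest and Ca/Ca sarcoma 5 lowest. Gbp3 ran from 5.21 to 9.54 over the sarcomas, and Irgm1, a regulator of the effector GTPases, from 5.27 to 8.92. Against muscle, Iigp1 differed by -0.67 (SE 1.34, limma adjusted p = 0.756), and by 0.10 without Ca/Ca sarcoma 5.

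Ca/+ sarcoma 1 and Ca/Ca sarcoma 2 had similar means over the 35 members, 7.56 and 7.34, and differed by role. All 6 GTPases were lower in Ca/+ sarcoma 1, with a median difference of -1.25 and values from -2.15 for Iigp1 to -0.21 for Irgm1. Of 10 antiviral effectors, 8 were higher there, with a median of 0.64 and 2.14 for Ifit1. Among the 4 transcription factors the difference was -1.27 for Irf1, -0.15 for Irf9, 0.02 for Stat2 and 0.98 for Irf7, with a median of -0.067. Over all genes the median of this difference was near 0, with 49.9% above 0. The markers of T and NK cells, which are known to make interferon gamma, averaged 5.09 in Ca/+ sarcoma 1 and 6.46 in Ca/Ca sarcoma 2. They were not alone in this, as every other marker list was also lower in Ca/+ sarcoma 1. Examples are B and plasma cell (5.43 against 7.43), neutrophil (4.69 against 6.13), macrophage (9.59 against 10.23) and muscle fibre markers (6.93 against 9.17). Ifng itself was at or under the floor on both arrays, at 2.55 and 3.26. The part of any of these cell types in the split was not tested. This is 1 array against 1 array, with no replicate, and both tumours were chosen after their values were seen.

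**Figure D4:**
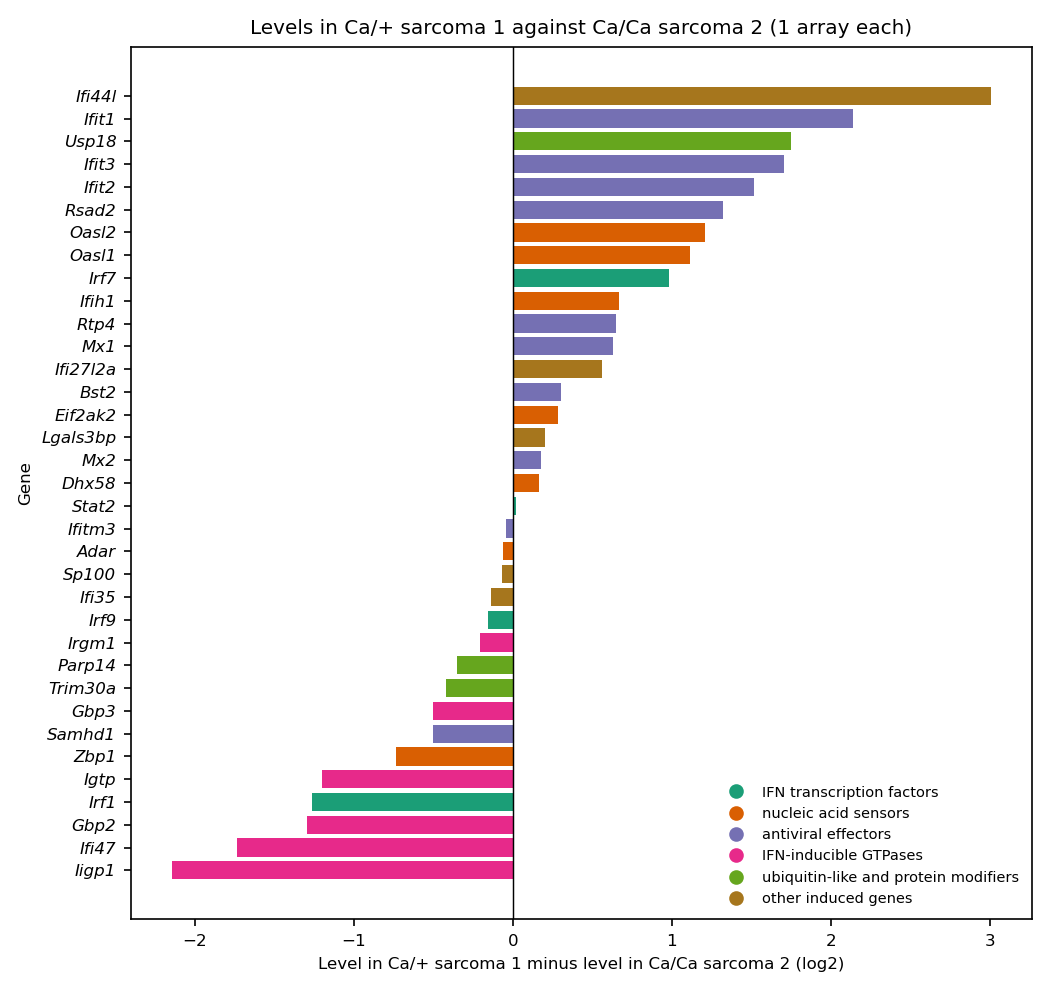
Log2 level in Ca/+ sarcoma 1 minus that in Ca/Ca sarcoma 2 (x axis), 1 array each, as a bar for each of the 35 genes (y axis, sorted by the difference) coloured by role. The bars of the 6 GTPases point left of 0 and those of 8 of 10 antiviral effectors point right.

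Of the 3 protein modifiers, Usp18 was higher in Ca/+ sarcoma 1 than in Ca/Ca sarcoma 2, and Parp14 and Trim30a were lower. Usp18 was at 6.73 and 5.69 in muscle, at 10.31, 6.47, 7.25 and 4.61 in the Ca/Ca sarcomas and at 8.22 and 9.67 in the Ca/+ sarcomas. Usp18, which removes Isg15 from proteins and dampens the type I receptor, spanned 5.70 units among the sarcomas and was at or under the floor in Ca/Ca sarcoma 5. Trim30a ran from 5.42 to 9.12 over the sarcomas, and Parp14, an ADP-ribosyltransferase, from 5.19 to 8.28. Of the remaining members, Ifi27l2a had the lowest difference from muscle at -1.46 (SE 0.94, limma adjusted p = 0.301). Ifi27l2a was at 10.56 and 12.08 in muscle, at 10.98, 9.37, 10.65 and 7.33 in the Ca/Ca sarcomas and at 9.92 and 10.94 in the Ca/+ sarcomas. The Ca/+ muscle held the highest level of all samples, and Ca/Ca sarcoma 5 the lowest. Sp100 was at 6.04 and 6.13 in muscle, at 7.55, 5.73, 5.98 and 4.59 in the Ca/Ca sarcomas and at 5.65 and 6.75 in the Ca/+ sarcomas. Sp100, a component of nuclear bodies, differed from muscle by -0.04 (SE 0.65, limma adjusted p = 0.973). Ifi35 ran from 6.72 to 8.89 over the sarcomas, and Lgals3bp, a secreted glycoprotein, from 7.38 to 10.24.

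Between genotypes, no member passed the test and no gene of the 12393 was called (0%). At an unadjusted p under 0.05 limma gave 1 member and 971 genes. The members' median difference of Ca/Ca over Ca/+ sarcoma was -0.59, with 33 below 0 and 2 above, against -0.000485 over all genes. Without Ca/Ca sarcoma 5 the median was -0.098, and more members lay above 0, Iigp1, Ifi47 and Gbp2 among them. The values that follow are with all 6 sarcomas. The largest differences were -2.25 for Ifit1 (SE 1.72, limma adjusted p = 0.741) and -2.08 for Ifit3 (SE 1.45, adjusted p = 0.726), apart from Ifi44l. The members above 0 were Ifitm3 at 0.20 (SE 0.37, limma adjusted p = 0.90) and Irf1 at 0.07 (SE 0.68, adjusted p = 0.987). The Ca/Ca tumours held both the highest and the lowest member means, and Ca/+ tumours lay between.

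Ifi44l, an interferon-induced gene that RefSeq also lists as H28, was the exception in pattern. Ifi44l was at 2.84 and 3.46 in muscle, at 2.89, 2.80, 2.88 and 2.88 in the Ca/Ca sarcomas and at 5.81 and 7.09 in the Ca/+ sarcomas. All 6 samples other than the Ca/+ sarcomas were at or under the floor, and both Ca/+ sarcomas lay above it. It was the single member with all 4 Ca/Ca sarcomas below both Ca/+ sarcomas, an arrangement that 11.3% of all genes had. The difference was -3.59 (SE 0.33), with an unadjusted p of 2.82e-05 and an adjusted p of 0.196 by limma, and its size depends on values at the floor. The strain of the mice is not stated, and its part in this difference was not tested. Without Ca/+ sarcoma 1 it was -4.22 (adjusted p = 0.0146), with the lone Ca/+ sarcoma assumed to vary like the others. Of its other probe sets, 1 gave 5.29 and 7.09 in the Ca/+ sarcomas and 2.47 to 2.95 in the Ca/Ca sarcomas, and 1 was at or under 2.35 on every array.

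The muscles differed as well. The Ca/Ca muscle was above the Ca/+ muscle for 31 of 35 members, against 49% of all genes, with a median difference of 0.65 and the highest for Oasl2 at 2.18. The 15 macrophage markers averaged 9.51 and 8.09 in the Ca/Ca and Ca/+ muscles, and fibroblast markers 10.26 and 9.39. Other lists were lower in the Ca/Ca muscle: B and plasma cell (6.26 and 7.54), neutrophil (5.41 and 5.85) and adipocyte markers (8.91 and 10.80). The part of these cells in the muscles' difference was not tested. Measured from the muscle of the same genotype, the Ca/Ca sarcoma means had a median difference of 0.13 over the members and the Ca/+ sarcoma means 1.5. The interaction of tissue and genotype, the Ca/Ca difference minus the Ca/+ one, called no member and 1 of all genes (0.00807%). At an unadjusted p under 0.05 limma gave 1 member, Ifi44l, and 895 genes. The largest terms were -4.06 for Ifit1 (SE 3.29, limma adjusted p = 0.893) and -3.98 for Oasl2 (SE 2.67, adjusted p = 0.858) and -3.70 for Ifit3 (SE 2.78, adjusted p = 0.882). It rests on 1 muscle per genotype.

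Other genes of the pathway were taken from lists of ligands, receptors, signalling, sensing, regulators and further induced genes. The background for each count against muscle is 26.3% of all genes called. Of 9 measured interferon genes none was called, and 8, Ifnb1 and Ifng among them, were at or under the floor on every array. Ifnb1 differed between sarcoma and muscle by -0.05 (limma adjusted p = 0.897) and Ifng by 0.17 (adjusted p = 0.593). Of 5 receptor chains, 2 passed the test, both higher in sarcoma, and none lower, against 13.1% of all genes called higher and 13.2% lower. Ifngr2, the signalling chain of the interferon gamma receptor, rose by 1.00 (SE 0.21, limma adjusted p = 0.0105), and Ifnar1 by 0.64 (SE 0.18, adjusted p = 0.0282). Without the Ca/+ muscle neither was called (limma adjusted p = 0.136 for Ifngr2 and 0.284 for Ifnar1). With housekeeping centring neither was called, at 0.62 for Ifngr2 (adjusted p = 0.0577) and 0.26 for Ifnar1 (adjusted p = 0.243). In all, the call was lost in 7 of 17 alternatives for Ifnar1, cyclic loess among them (adjusted p = 0.0613), and in 4 of 17 for Ifngr2. Ifnar2 differed by 0.37 (adjusted p = 0.379) and Ifngr1 by 0.40 (adjusted p = 0.349). None of 4 signalling genes, 16 sensing genes or 9 negative regulators was called, Jak1 for example differing by -0.18 (limma adjusted p = 0.474).

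Of 29 further induced genes, 2 were called, both higher in sarcoma, against 13.1% of all genes called higher. Plscr1, a phospholipid scramblase, rose by 1.54 (SE 0.23, limma adjusted p = 0.00211). Ifi202b, of the DNA-sensing family, rose by 2.09 (SE 0.44, adjusted p = 0.00945), a value that near-identical copies may share, and it was not called without the Ca/+ muscle (adjusted p = 0.121). These 29 genes are outside the list of 40 but are also interferon-induced, and were chosen with earlier results of these data known. Ca/Ca sarcoma 1 was the highest sarcoma in 23 of them, against 10.9% of all genes. Ca/Ca sarcoma 5 was the lowest in 26, against 20.5% of all genes. Their median range was 2.74, against 0.654 over all genes.

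Immune cell markers are given beside the tumours' order because infiltrating cells also make these transcripts. The 15 macrophage markers averaged 10.10, 10.23, 10.19 and 8.77 in Ca/Ca sarcomas 1, 2, 3 and 5, and 9.59 and 10.39 in Ca/+ sarcomas 1 and 2. All 15 were above the floor in every sarcoma, and their summed linear level was 13380 to 32780 in sarcoma and 9337 to 21110 in muscle. The 11 T and NK cell markers averaged 6.56, 6.46, 6.36 and 4.11 in the Ca/Ca sarcomas and 5.09 and 6.48 in the Ca/+ sarcomas, with sums of 243.1 to 1837 in sarcoma and 989.3 to 995.5 in muscle. Of the macrophage markers, 2 passed the test between sarcoma and muscle, Cd68 and Ms4a7, both higher in sarcoma, a share near the 13.1% of all genes called higher. Ca/Ca sarcoma 5 was the lowest sarcoma for 12 of 15 macrophage and 9 of 11 T and NK cell markers. Ca/Ca sarcomas 1, 2 and 3 and Ca/+ sarcoma 2 had close means in both lists, 10.10 to 10.39 and 6.36 to 6.56, while their member means ran from 7.34 to 9.20. Ca/Ca sarcoma 1 was highest for 1 of 15 macrophage and 3 of 11 T and NK cell markers. By list means, T and NK cell markers and fibroblast markers (9.57 to 10.21 in sarcoma) had the members' ends, with Ca/Ca sarcoma 1 highest, Ca/+ sarcoma 2 next and Ca/Ca sarcoma 5 lowest (level with Ca/+ sarcoma 1 in the fibroblast list). The part of these cells in the members' order was not tested. Among 5 B and plasma cell, 7 dendritic and 7 neutrophil markers, Pax5, Xcr1, Elane and Mpo were at or under the floor on all arrays.

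**Figure D5:**
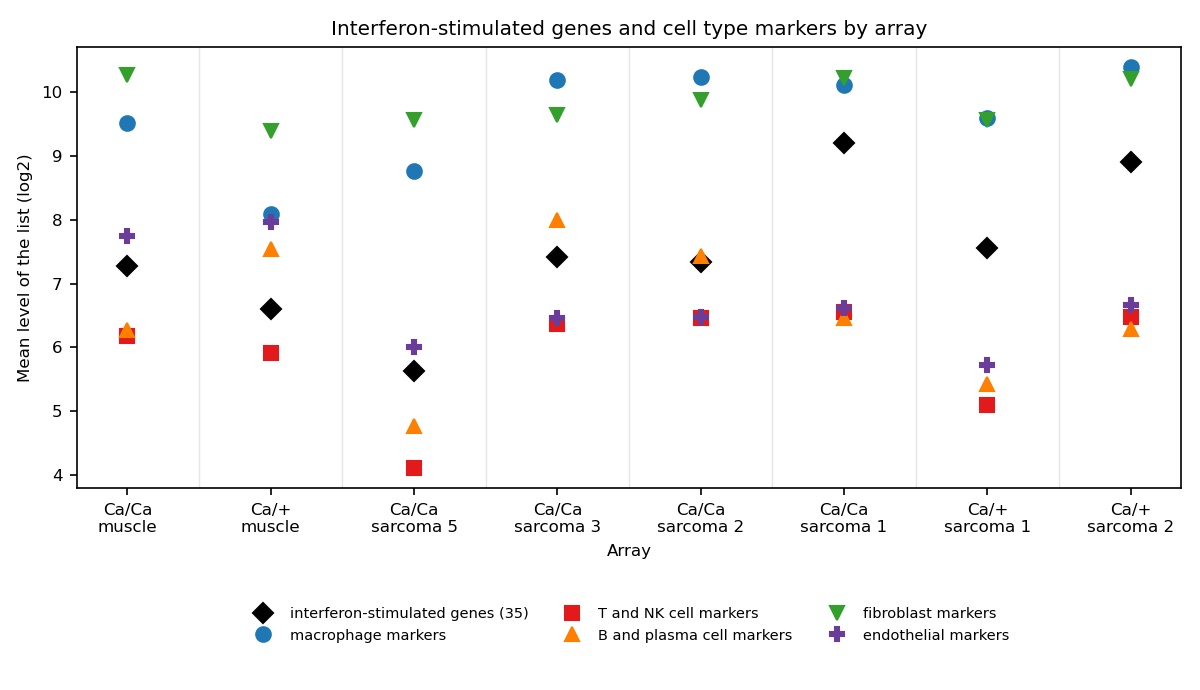
Mean log2 level (y axis) of the 35 members (black diamonds) and of the macrophage, T and NK cell, B and plasma cell, fibroblast and endothelial marker lists on each of the 8 arrays (x axis). Ca/Ca sarcomas 1, 2 and 3 and Ca/+ sarcoma 2 have close macrophage and T and NK cell means (10.10 to 10.39 and 6.36 to 6.56), while the members' mean is 9.20, 7.34, 7.42 and 8.90 there.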

How the data were processed

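RNA of 8 tissue samples was hybridised to 1 array each. The values are log2 levels per probe set, made by the authors with RMA per the submitters' processing notes; its version, and whether the arrays were processed together, are not given in the sources used here. RMA makes the arrays' distributions alike, so a shift of all genes would not show. Of 22626 probe sets that are not controls, 20380 have 1 gene symbol in the platform annotation, 691 have several and 1555 have none; only the first kind was used, with no filter on dim genes.

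Differences were fitted with limma 3.58.1 in R 4.3.3 (lmFit and eBayes), after the script was tested on simulated data. Sarcoma against muscle and the interaction used 8 arrays, and the genotypes were compared over the 6 sarcomas. The threshold was a Benjamini-Hochberg adjusted p of 0.05 over 12393 genes. The number of arrays limits the precision.

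The members and lists were chosen with earlier results of these data known. Fits are printed for members past the threshold, the 4 largest differences each way against muscle, the 3 largest each way between genotypes (where as many existed) and the 3 largest interaction terms, and for called or preset pathway genes. Tumour numbers shared by the genotypes name tumours and do not pair them. Alternatives were mean probe set values, other normalizations, filters on dim genes, array weights, genotype as a covariate, single genotypes, a replicate block, and leaving out each array.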

Additional observations from a re-analysis of the deposited data

Results flagged for a closer look

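Within a group of 4 tumours, a single sample can stand apart from the rest. By Dixon's rule the gap at an end had to exceed 0.829 of the range of 4 tumours, or 0.625 of that of 6. Over 70 groups checked, each 1 member in the 4 Ca/Ca or in all 6 sarcomas, 3 had such a sample. Chance alone marks about 1 group in 20, and 3 of 70 is not above that share. The groups overlap and share arrays, so they are not independent. In each of the 3 the sample was Ca/Ca sarcoma 1 among the Ca/Ca sarcomas. The gap to the nearest tumour is given as a share of the group's range. For Eif2ak2 the share was 0.872, with 8.65 in Ca/Ca sarcoma 1 and 7.13 to 7.33 in the others. On the gene's other probe set the share was smaller, with 6.26 in Ca/Ca sarcoma 1 and 4.87 to 5.38 in the others. For Mx1 the share was 0.837, with 7.19 against 4.43 to 4.88. Its lowest value there, 4.43 in Ca/Ca sarcoma 2, was under the floor. For Mx2 the share was 0.915, with 6.76 against 5.20 to 5.33.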

How the results depend on the processing

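The members' median range among the sarcomas (3.92) ran from 2.19, without Ca/Ca sarcoma 5, to 3.92 with a sarcoma left out, an alternative chosen after seeing the data. Against muscle, the count of members called (1) was 0 with mean probe set values, cyclic loess, housekeeping centring, genotype as a covariate and the Ca/Ca arrays only, and 2 with the Ca/+ arrays only, Eif2ak2 and Ifit1 (4.16, limma adjusted p = 0.0427); it was 0 to 1 when an array was left out. All genes called (3256) came to 601 with the Ca/Ca and 1287 with the Ca/+ arrays only, and to 1195 (without the Ca/+ muscle) to 3451 with an array left out. The members' median kept its direction, at 0.36 to 1.15 with an array left out, 0.13 (24 of 35 members above 0) with the Ca/Ca arrays only and 1.5 with the Ca/+ arrays only. Housekeeping centring moved the median of all genes by -0.383 and turned 5 members below 0. Sp100 turned to 0.155 with array weights and 0.0751 with the Ca/+ arrays only, and ran from -0.34 to 0.25 with an array left out; Iigp1 ran from -1.01 to 0.10. Between genotypes, members and genes called (0) were 0 to 1 with an array left out, the 1 being Ifi44l; the median ran from -1.39 to 0.07, Ifitm3 from -0.22 to 0.62 and Irf1 from -0.51 to 0.65. With the tumour number as a replicate block over sarcomas 1 and 2 of each genotype, no pairing being stated, the members' median was 0.16, and limma called 0 members and 0 genes, as it did without the block (971 genes at an unadjusted p under 0.05 without it); same-numbered tumours' deviations correlated at -0.189 and 0.293. Genes called in the interaction (1) were 0 without the dimmest 25% or 50% of genes, 2 with housekeeping centring, 13 with array weights and 0 to 1 with a sarcoma left out; it could not be fitted without either muscle. The causes were not tested. Signal near the floor limits 15 of 280 member values.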
